A study of Mus musculus with 12 samples.

Results

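The nuclear genes for subunits of the mitochondrial respiratory chain and of the ATP synthase were followed in mouse spleen and axillary lymph node. They were chosen by symbol: genes named Ndufa, Ndufb, Ndufc, Ndufs or Ndufv with a number (complex I), Sdha to Sdhd (complex II), Uqcr (complex III), Cox4i, Cox5, Cox6, Cox7 or Cox8 (complex IV) and Atp5 (complex V, the ATP synthase). Cox7a1 and Cox8b were kept apart because they mark brown fat. This gave 82 of the 23284 genes in the deposited tables: 37 in complex I, 4 in complex II, 8 in complex III, 16 in complex IV and 17 in complex V. Of these, 79 passed the filter on low counts in spleen and 80 in lymph node. Cox7b2 and Cox8c, isoforms known from testis, had no count in any library, which allows up to 0.259 to 0.506 CPM depending on the library (counting error only), and Cox4i2 failed the filter in spleen.

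All mice lacked apoE, a protein that lets the liver take up remnant lipoproteins, and mouse apoA-I, which forms the core of HDL particles. One genotype had no further change (DKO), and the other also overexpressed human apoA-I (DKO/hA-I). The sources used here do not give the promoter of the human transgene. Animals were 30 weeks old and ate a normal laboratory diet, and each of the 4 groups of tissue and genotype had 3 poly(A) RNA-seq libraries.

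The respiratory chain passes electrons from NADH, through complex I, or from succinate, through complex II, to ubiquinone, and on through complex III, cytochrome c and complex IV to oxygen. Complexes I, III and IV pump protons out of the mitochondrial matrix, and complex V lets them return and makes ATP. Brown adipocytes are packed with respiratory chain but hold little ATP synthase for it, and they limit the synthase through the gene for its membrane subunit c. Lymphocytes and macrophages carry fewer mitochondria and change their use of them with activation.

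Libraries held 5911835 to 11950825 counts, and 3 counts corresponded to 0.259 to 0.506 CPM (counts divided by the TMM-scaled size of the library, for all 12 libraries together). CPM are given with their SD (n = 3) and log2 fold changes with their standard error. Lymph node DKO replicate 2 stood apart from the other nodes in markers of cycling cells (summed level 2524 CPM, against 623.8 to 977 in the other 5 nodes) and of plasma cells (9727 against 1205 to 2405). Each library has its own animal code. The second number of the code is 75 in all 3 DKO nodes and 76, 77 and 78 in the DKO/hA-I nodes, so the genotypes of the nodes and this number, whose meaning the labels do not give, cannot be told apart. Mouse Apoa1 and Apoe are targeted in both genotypes and so do not check the labels. The processed pseudogene Rpl31-ps12, singled out because its tissues go opposite ways, summed to 2094 counts over the DKO nodes and 3 over the DKO/hA-I nodes but to 5 and 2162 over the spleens. Directions are therefore given as the libraries are labelled. Had the genotype names of 1 tissue been swapped, the subunit genes of both tissues would lean the same way. For the 3 genes called by the interaction reported further on, its sign would turn with the nodes swapped and stay with the spleens swapped.

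In lymph node, 55 of the 63 tested genes of complexes I to IV had a negative log2 fold change of DKO against DKO/hA-I (48.4% of all genes did), and 3 of them were called lower (edgeR, adjusted p under 0.05; 2.92% of all genes were). The summed level of their 65 genes was 3731, 3905 and 3759 CPM in DKO replicates 1 to 3, and 6244, 5736 and 4098 CPM in DKO/hA-I replicates 1 to 3. The DKO nodes lay close together, whereas DKO/hA-I replicate 3 stood near them and well under the other DKO/hA-I nodes. Complex V stood at 2534, 2936 and 2510 CPM in DKO and at 3782, 3396 and 2588 CPM in DKO/hA-I nodes, and these groups overlapped. Fewer cells with many mitochondria and less of these transcripts per cell cannot be told apart in whole tissue. The 6 spleen libraries of both genotypes ranged from 3282 to 4572 CPM for complexes I to IV, so DKO/hA-I nodes 1 and 2 lay above every spleen and every DKO node.

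**Figure D1:**
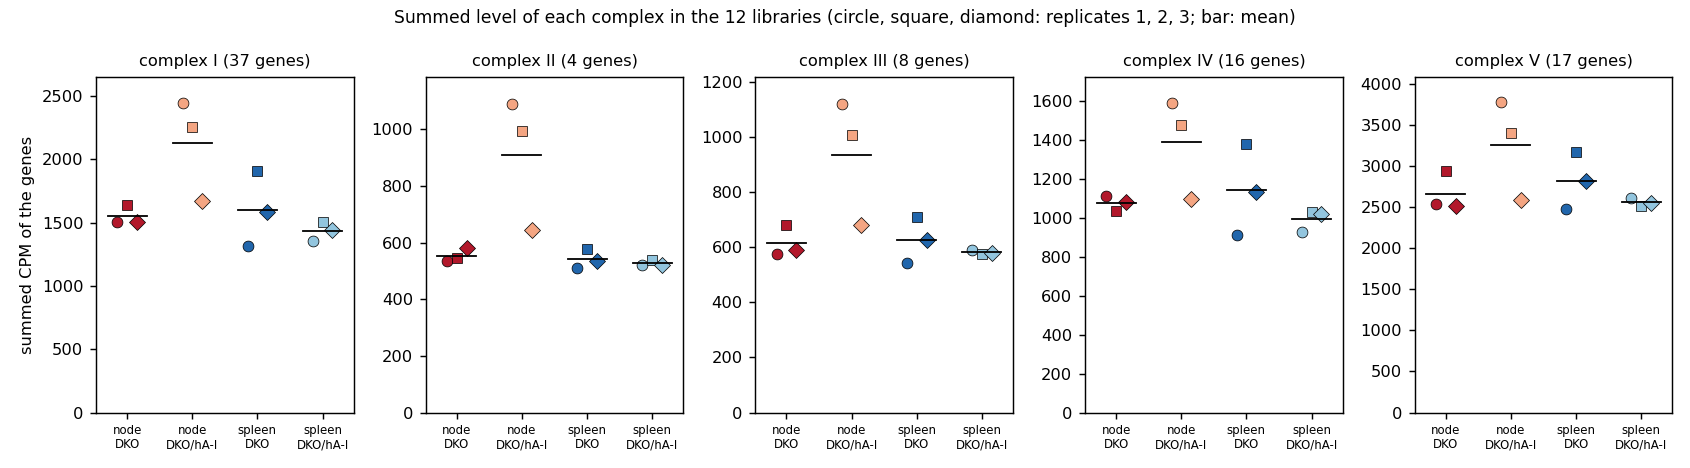
Summed CPM (vertical axes, from 0) of the genes of each complex in the 4 groups, with 1 symbol per library and a bar at the mean. DKO/hA-I nodes 1 and 2 have the highest sums in every complex, with 2443 and 2259 CPM in complex I. There DKO/hA-I node 3, at 1675 CPM, is close to the DKO nodes, at 1504 to 1640 CPM.

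The test across all genes passed 3 of the 80 subunit genes in lymph node, all lower in DKO (3.75%; edgeR's quasi-likelihood test, Benjamini-Hochberg adjusted p under 0.05). Of the 14012 genes tested there, 6.87% passed, 3.95% higher and 2.92% lower, so the share of subunit genes called was near the background. The direction was shared by most of the genes: a negative log2 fold change was found for 67 of the 80 genes against 48.4% of all genes, with a median of -0.37 against 0.01. The DKO values lay wholly below the DKO/hA-I values for 20 genes (25.0%, against 14.9% of all genes) and wholly above them for 3 (3.75%, against 15.6%). The passing genes were Ndufv1, Ndufa10 and Sdha.

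Ndufv1 encodes the flavoprotein core subunit of complex I that binds NADH and FMN (chromosome 19, 4007384 to 4012806, minus strand, GRCm38). It stood at 67.8, 66.5 and 64.6 CPM in the DKO nodes and at 160.0, 140.5 and 93.2 CPM in the DKO/hA-I nodes. The groups did not overlap, and the DKO nodes lay in a narrow range. The log2 fold change was -0.97 ± 0.19 (edgeR adjusted p = 0.031, lower in 3 of 3 DKO libraries than in any DKO/hA-I library). In the authors' deposited table Ndufv1 was the only one of the 82 genes with a q-value under 0.05 in lymph node (q = 0.0207), where 3.37% of all genes had one.

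Ndufa10, an accessory subunit of complex I related to nucleoside kinases (chromosome 1, 92439010 to 92473860, minus strand), stood at 55.9, 56.7 and 58.1 CPM in DKO and at 125.5, 112.5 and 75.1 CPM in DKO/hA-I nodes. Its log2 fold change was -0.86 ± 0.19 (edgeR adjusted p = 0.0388), again with groups that did not overlap. Sdha, the flavoprotein of complex II that oxidizes succinate and so is also an enzyme of the citric acid cycle (chromosome 13, 74322254 to 74350280, minus strand), stood at 303.1, 297.9 and 307.9 CPM in DKO and at 692.8, 631.4 and 397.8 CPM in DKO/hA-I nodes. Its log2 fold change was -0.91 ± 0.20 (edgeR adjusted p = 0.0419). In each of these genes DKO/hA-I replicate 3 was the lowest of its group.

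The 3 calls rest on particular libraries. Leaving out DKO replicate 1, DKO replicate 3, DKO/hA-I replicate 1 or DKO/hA-I replicate 2 left 0 of the subunit genes called, while leaving out DKO replicate 2 gave 14 (1 higher and 13 lower, where 15.7% of all genes passed) and leaving out DKO/hA-I replicate 3 gave 11, all lower (3.03% of all genes). DESeq2 called 13 (1 higher and 12 lower) with 14.0% of all genes, and limma voom 1 with 4.99%. Of the 4 settings that left 0, between 0.808% and 2.99% of all genes passed.

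The promoters of the passing genes are shown because the genes moved together, with that of Atp5g1, whose value in lymph node went the other way. Each is 250 bases before to 50 bases after the RefSeq start on GRCm38.p6, read 5′ to 3′ on the gene's own strand, and capitals mark matches to a motif of NRF-1 (GCGCA and GCGC with any base between), ETS factors (CCGGAAG), ERR (AAGGTCA), YY1 (AANATGGC) or CREB (TGACGTCA) on either strand.
Sdha (chr13:74350191-74350490, minus strand): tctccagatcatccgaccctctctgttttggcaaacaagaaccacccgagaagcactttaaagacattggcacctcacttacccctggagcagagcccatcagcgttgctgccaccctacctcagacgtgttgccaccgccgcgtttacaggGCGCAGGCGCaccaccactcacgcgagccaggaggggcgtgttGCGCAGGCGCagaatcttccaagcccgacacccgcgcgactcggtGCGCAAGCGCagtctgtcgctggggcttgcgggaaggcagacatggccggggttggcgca
Ndufv1 (chr19:4012706-4013005, minus strand): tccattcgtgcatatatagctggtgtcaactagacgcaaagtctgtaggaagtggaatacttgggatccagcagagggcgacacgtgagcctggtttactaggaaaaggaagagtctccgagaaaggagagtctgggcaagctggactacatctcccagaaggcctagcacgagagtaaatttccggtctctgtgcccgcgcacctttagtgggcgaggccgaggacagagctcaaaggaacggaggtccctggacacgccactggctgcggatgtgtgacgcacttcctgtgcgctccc
Ndufa10 (chr1:92473709-92474008, minus strand): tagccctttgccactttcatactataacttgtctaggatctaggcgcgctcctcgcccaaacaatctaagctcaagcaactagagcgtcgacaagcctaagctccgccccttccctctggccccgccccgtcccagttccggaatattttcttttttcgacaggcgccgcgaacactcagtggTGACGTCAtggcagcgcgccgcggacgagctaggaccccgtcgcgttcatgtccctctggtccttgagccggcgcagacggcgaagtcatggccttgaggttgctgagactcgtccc
Atp5g1 (chr11:96075582-96075881, minus strand): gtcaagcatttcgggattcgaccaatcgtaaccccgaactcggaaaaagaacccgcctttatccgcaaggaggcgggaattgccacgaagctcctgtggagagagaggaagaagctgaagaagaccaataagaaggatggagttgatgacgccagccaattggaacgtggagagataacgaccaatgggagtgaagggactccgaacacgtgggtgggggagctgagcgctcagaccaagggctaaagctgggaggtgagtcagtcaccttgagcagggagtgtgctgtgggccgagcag

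The Sdha promoter held 3 matches to the NRF-1 motif, 2 of them with the same letters, and Ndufa10 held 1 match to the CREB motif. Ndufv1 and Atp5g1 held none of the 5 motifs in this window. Atp5g1 held 5 matches to the CCAAT box counted on both strands, 2 of which overlap each other. NRF-1 is known as an activator of nuclear genes for mitochondrial proteins. Of the 64 subunit genes with a promoter in the RefSeq table, 17 held its motif (26.6%, against 5.19% of 27025 genes). The ETS motif was found in 16 (25.0% against 9.93%), the YY1 motif in 16 (25.0% against 6.96%), 12 of them in complex I, and the ERR motif in 8 (12.5% against 5.38%). The GGGCGG box (40.6% against 38.2%) and the CCAAT box (43.8% against 41.1%) were about as common as in all promoters, and TATAAA stood at 9.38% against 15.7%. A match is a run of letters and was not tested as a binding site.

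Within complex I, all 7 core subunits, which carry the flavin and iron-sulphur centres, had a negative log2 fold change in lymph node (median -0.53), and 22 of 28 accessory subunits did (median -0.34). Ndufs1, the largest subunit of complex I, stood at 77.2, 106.1 and 92.6 CPM in DKO and at 179.3, 171.9 and 121.3 CPM in DKO/hA-I nodes, groups that did not overlap (log2 fold change -0.76 ± 0.19, edgeR adjusted p = 0.0536). The accessory subunit Ndufb8 stood at 50.4 ± 6.1 CPM against 86.9 ± 26.0 (-0.77 ± 0.23, edgeR adjusted p = 0.0871). The gene of opposite sign by the widest margin was Ndufa4l2, a paralogue of Ndufa4 known to be induced by low oxygen. It stood at 2.34, 2.70 and 4.59 CPM in DKO and at 1.02, 1.18 and 2.04 CPM in DKO/hA-I nodes, from 94 and 43 counts in all (log2 fold change 1.22 ± 0.41, edgeR adjusted p = 0.117). Its exons share 32 bases with those of Shmt2 on the opposite strand, and the sources used here do not say how reads there were assigned.

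All 4 subunits of complex II had negative values. Sdhb, the iron-sulphur subunit, stood at 92.6 ± 5.6 CPM in DKO against 126 ± 36.2 (log2 fold change -0.44 ± 0.21, edgeR adjusted p = 0.248). The membrane anchors Sdhc and Sdhd had -0.26 ± 0.16 and -0.49 ± 0.18 (edgeR adjusted p = 0.376 and 0.153). For these 3 the DKO values overlapped those of DKO/hA-I replicate 3. The CPM of Sdha divided by that of Sdhc was 4.22, 3.75 and 3.64 in the DKO nodes, 6.35, 6.28 and 5.35 in the DKO/hA-I nodes and 4.03 to 4.87 in the spleens, so the DKO/hA-I nodes held the highest ratios of the 12 libraries.

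All 8 genes of complex III were negative, with a median of -0.60, the lowest of the 5 complexes, and none passed the test. Uqcrfs1, the Rieske iron-sulphur protein, stood at 63.5, 88.7 and 68.4 CPM in DKO and at 140.3, 124.9 and 88.1 CPM in DKO/hA-I nodes (log2 fold change -0.67 ± 0.20, edgeR adjusted p = 0.0926). DKO replicate 2 reached the level of DKO/hA-I replicate 3, so the groups overlapped. The core protein Uqcrc1 stood at 120 ± 7.5 CPM against 196 ± 56.9 (-0.70 ± 0.22, edgeR adjusted p = 0.0953).

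In complex IV, 13 of 14 tested genes were negative, including all 10 widely expressed subunits (median -0.39). Cox7b, a small subunit needed for the assembly of the complex, stood at 64.9, 72.0 and 65.0 CPM in DKO and at 110.0, 102.7 and 73.4 CPM in DKO/hA-I nodes (log2 fold change -0.49 ± 0.17, edgeR adjusted p = 0.12). These groups did not overlap, though DKO/hA-I replicate 3 lay just above DKO replicate 2. Cox6c stood at 64.0 ± 2.2 CPM against 93.0 ± 23.1 (-0.53 ± 0.19, edgeR adjusted p = 0.136). Cox7a2l, which helps to join complexes III and IV, had the same sign with a smaller value (184 ± 20.4 CPM against 206 ± 15.5, -0.15 ± 0.13, edgeR adjusted p = 0.536).

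**Figure D2:**
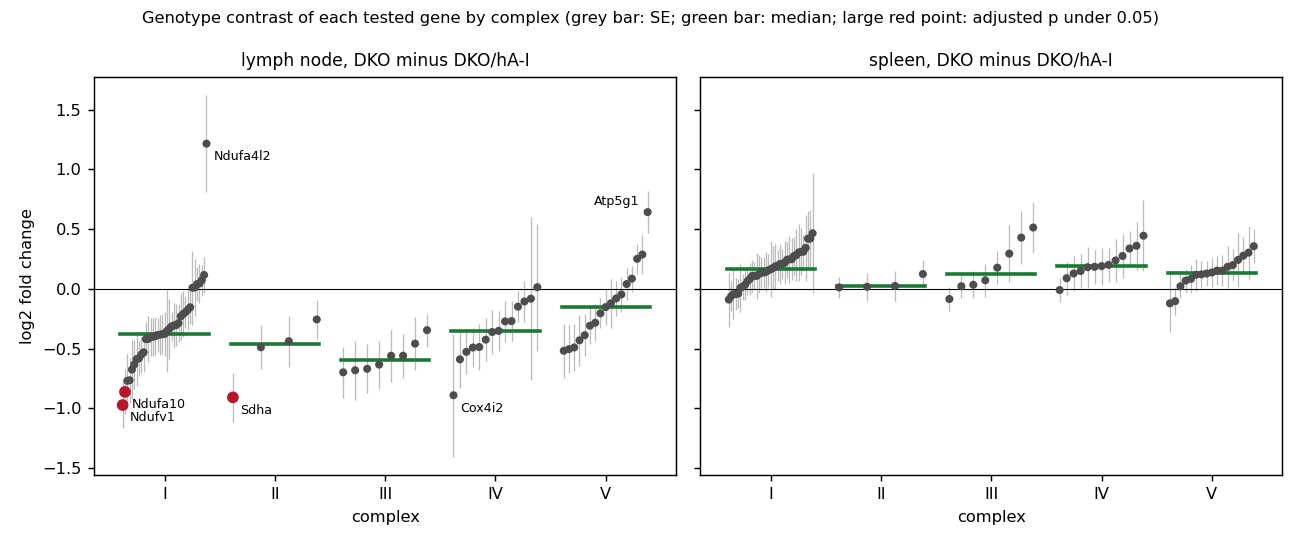
Log2 fold change of DKO against DKO/hA-I for each tested gene, sorted within its complex, in lymph node (left) and spleen (right). Grey bars are standard errors, green bars medians, and large red points the 3 genes with an adjusted p under 0.05. In lymph node the medians run from -0.60 (complex III) to -0.15 (complex V), and in spleen all 5 medians lie above 0.

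Complex V had the median nearest to 0 in lymph node (-0.15, 12 of 17 negative). The 17 were chosen by symbol and include Atp5s and Atp5sl, which were not classed with the synthase subunits. Both of these were negative, with a median of -0.50. The F1 head, which makes ATP, had 4 of 5 genes negative. Its catalytic subunit Atp5b stood at 707, 863.8 and 722 CPM in DKO and at 1383, 1176 and 756 CPM in DKO/hA-I nodes, with DKO replicate 2 above DKO/hA-I replicate 3 (log2 fold change -0.52 ± 0.22, edgeR adjusted p = 0.202). The 3 genes of subunit c, which form the rotating ring of the membrane part and yield the same mature protein, were all positive. Atp5g1 (chromosome 11, 96068852 to 96075670, minus strand) stood at 37.5, 51.3 and 33.2 CPM in DKO and at 27.1, 25.3 and 26.0 CPM in DKO/hA-I nodes. All DKO values lay above all DKO/hA-I values (log2 fold change 0.64 ± 0.18, edgeR adjusted p = 0.0736), and the test was not passed. Atp5g2 (0.09 ± 0.11) and Atp5g3 (0.29 ± 0.16) gave edgeR adjusted p = 0.671 and 0.323.

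As a share of all subunit c transcripts in CPM, Atp5g1 made up 13.1%, 15.4% and 12.3% in the DKO nodes, 9.94%, 10.2% and 10.8% in the DKO/hA-I nodes and 14.0% to 15.8% in the spleens. The ratio of Atp5g1 to Atp5b was 0.0531, 0.0594 and 0.046 in DKO nodes against 0.0196, 0.0215 and 0.0344 in DKO/hA-I nodes, and 0.0487 to 0.0585 in the spleens. The ratio of summed complex V to summed complexes I to IV was 0.679, 0.752 and 0.668 in DKO nodes and 0.606, 0.592 and 0.632 in DKO/hA-I nodes. The DKO/hA-I nodes thus stood below all 9 other libraries in these 3 ratios, which were computed after the genes' values had been seen and carry no test.

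Markers of other cell types also differed between the nodes of the 2 genotypes. The summed level of 10 brown adipocyte markers was 14.9, 16.4 and 27.2 CPM in DKO nodes, 806.6, 428 and 241 CPM in DKO/hA-I nodes and 2.15 to 4.86 CPM in the spleens, and 7 of the 9 markers tested were called lower in DKO nodes. Ucp1, the uncoupling protein that defines brown fat, stood at 0.72, 7.09 and 7.77 CPM in DKO and at 438.6, 122.9 and 115.1 CPM in DKO/hA-I nodes (log2 fold change -5.46 ± 0.87, edgeR adjusted p = 0.0177). The 12 markers of adipocytes in general summed to 134.5 to 189.5 CPM in DKO nodes and to 1896, 3337 and 902.8 CPM in DKO/hA-I nodes 1 to 3, with 11 called lower. Markers of lipid-laden macrophages went the other way, at 3587 to 14310 CPM in DKO against 1678 to 2335 CPM in DKO/hA-I nodes, with 10 of 12 called higher. Skeletal muscle markers summed to 6.58 to 16.6 CPM over the 12 libraries, with 0 of 4 called. B cell markers summed to 2443 to 3717 CPM in DKO nodes and 4053 to 4590 CPM in DKO/hA-I nodes, with 0 of 9 called. T cell markers stood at 996.4 to 1482 CPM against 1639 to 2269 CPM, with 1 of 10 called lower. Red pulp macrophage markers stood at 1094 to 1574 CPM against 449 to 804.7 CPM, with 0 of 8 called. Markers of cycling cells overlapped, at 808.3 to 2524 CPM against 623.8 to 823.1 CPM, with 0 of 15 called. The part of these cells in the subunit values was not tested.

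**Figure D3:**
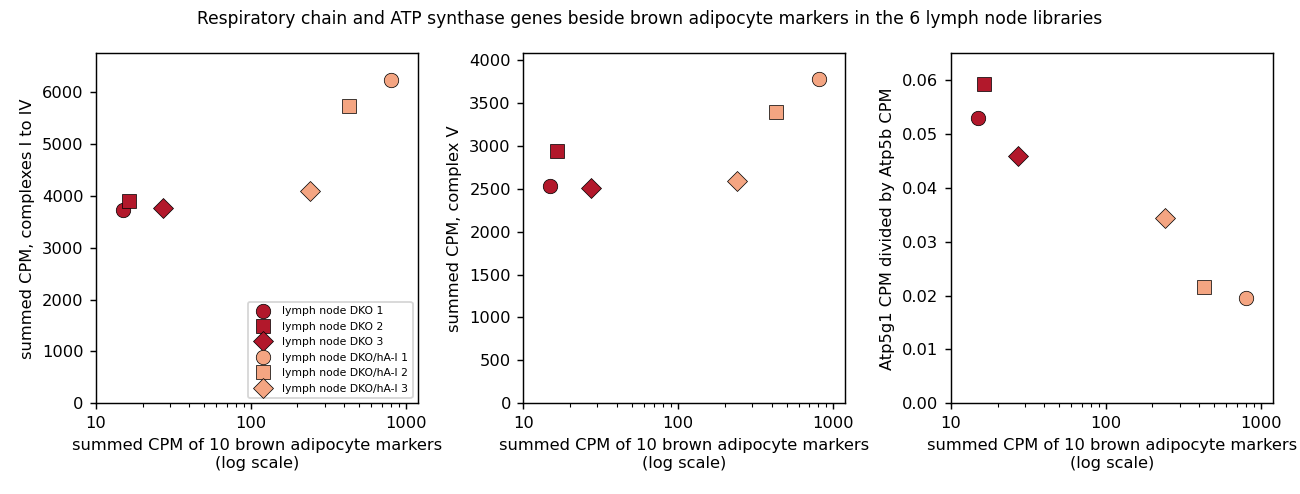
Summed CPM of complexes I to IV (left) and of complex V (middle) and the ratio of Atp5g1 to Atp5b (right) against the summed CPM of 10 brown adipocyte markers (horizontal, log scale) in the 6 lymph node libraries. The DKO/hA-I nodes lie at 241 to 806.6 CPM of the markers and the DKO nodes at 14.9 to 27.2.

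Cox7a1 and Cox8b, the complex IV isoforms of brown fat, heart and muscle, were in that marker list and not among the 82 genes. Cox8b stood at 0.18, 0.51 and 0.88 CPM in DKO and at 45.9, 34.1 and 13.4 CPM in DKO/hA-I nodes (log2 fold change -5.84 ± 0.64, edgeR adjusted p = 0.00901), and Cox7a1 at 0.54, 0.17 and 0.97 CPM against 37.3, 21.0 and 7.74 CPM.

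In spleen, none of the 79 tested genes passed the test between the genotypes (edgeR, DESeq2 and limma voom each called 0), and 4 had an unadjusted p under 0.05. Of all 14009 genes tested in spleen 0.00714% passed. The log2 fold changes leaned the other way from those of lymph node: 70 of the 79 were positive (88.6%, against 51.6% of all genes), with a median of 0.15 against 0.01. The DKO values lay wholly above the DKO/hA-I values for 2 genes (2.53%, against 5.08% of all genes) and wholly below them for 0 (against 5.53%). Uqcr11, a small subunit of complex III, stood at 21.3, 40.7 and 32.5 CPM in DKO and at 19.9, 24.9 and 21.1 CPM in DKO/hA-I spleens (log2 fold change 0.51 ± 0.21, edgeR adjusted p = 0.928). Atp5j2, subunit f of the synthase, stood at 50.7, 70.7 and 61.1 CPM against 42.0, 51.6 and 48.0 CPM (0.36 ± 0.14, edgeR adjusted p = 0.928). Of the 3 genes called in lymph node, Sdha stood at 315 ± 9.0 CPM against 311 ± 6.5, Ndufa10 at 55.5 ± 0.50 against 54.5 ± 4.4 and Ndufv1 at 83.5 ± 13.1 against 75.5 ± 4.0 (edgeR adjusted p = 0.987, 0.984 and 0.928).

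The spread among DKO spleens was wide. The summed level of complexes I to IV was 3282, 4572 and 3879 CPM in DKO replicates 1 to 3 and 3398, 3648 and 3563 CPM in the DKO/hA-I spleens, so DKO held the lowest and the highest of the 6. DKO replicate 1 held the lowest value of all 12 libraries for 32 of the 80 genes with any count, and DKO replicate 2 the highest for 13. Erythroid markers summed to 8543, 40940 and 23360 CPM in DKO spleens 1 to 3 against 13560, 18680 and 12380 CPM in DKO/hA-I spleens 1 to 3, and markers of cycling cells to 1855, 3845 and 3186 CPM against 3071, 1907 and 2373 CPM. Over the DKO spleens both lists ran in the order of the subunit genes, over the DKO/hA-I spleens neither did, and their part in the subunit values was not tested. Without DKO replicate 2 the median log2 fold change of the subunit genes was 0.04. Without DKO replicate 1 it was 0.27, with 1 gene called where 1.18% of all genes passed. The second number of the animal code is 56, 57 and 55 in DKO spleens 1 to 3 and 55, 57 and 57 in the DKO/hA-I spleens. With this number as a block, 17 of the 79 genes were called (21.5%), all higher in DKO, where edgeR called 515 genes in all (3.68%). DKO spleen 1 alone has the number 56, so the block takes it out of the contrast.

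**Figure D4:**
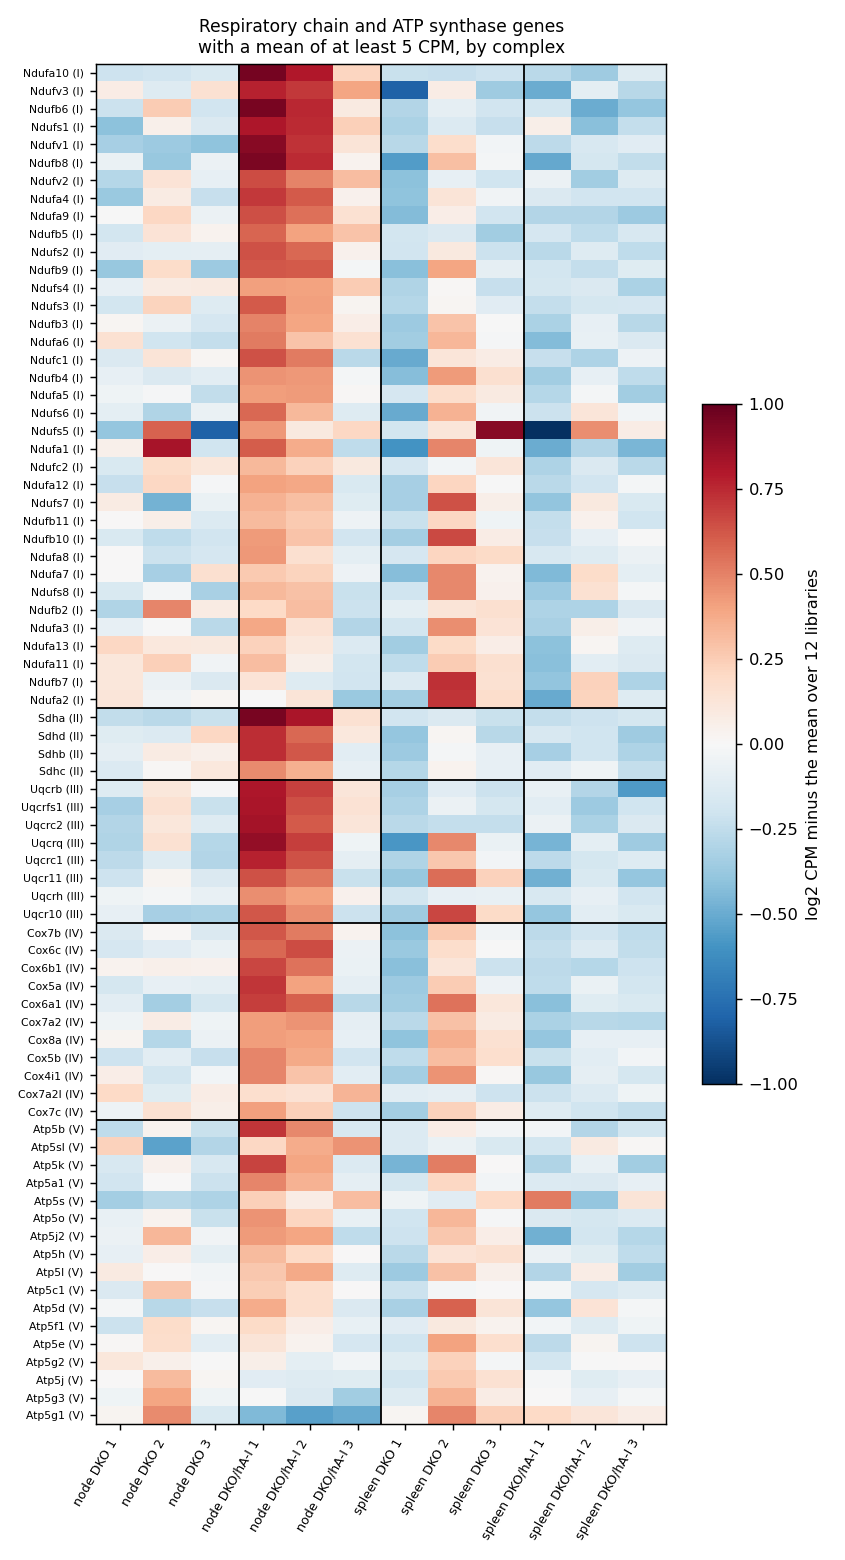
Log2 CPM of the 76 genes with a mean of at least 5 CPM, each minus its own mean over the 12 libraries (red higher, blue lower, colours end at -1 and 1), in rows by complex and in columns by library. The median over these genes is 0.48 and 0.40 in DKO/hA-I nodes 1 and 2, -0.07 in DKO/hA-I node 3, 0.21 in DKO spleen 2 and -0.30 in DKO spleen 1.

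The difference between the tissues in the genotype contrast was tested as an interaction over all 12 libraries. It uses the same nodes as the genotype comparison in lymph node, so the calls of these tests are not independent. The same 3 genes passed, each with the lymph node contrast below that of spleen, among 80 subunit genes (3.75%; 3.33% of 14608 genes passed, 1.29% lower). The interaction was -1.13 ± 0.25 for Ndufv1 (edgeR adjusted p = 0.0266), -0.94 ± 0.23 for Sdha (0.0425) and -0.90 ± 0.22 for Ndufa10 (0.0449), all on the log2 scale. Of the 80 genes 76 had a negative interaction (95.0%, against 50.1% of all genes), with a median of -0.53 against 0.00, and the median was lowest in complex III (-0.81) and nearest to 0 in complex V (-0.38). Uqcrc1 had -0.90 ± 0.28 (edgeR adjusted p = 0.101), Cox6a1 -0.97 ± 0.34 (0.157) and Atp5b -0.67 ± 0.26 (0.199). The 4 positive ones (5.0%, against 49.9%) were Ndufa4l2, Atp5g1, Atp5g3 and Atp5j. Limma voom called 0 subunit genes (1.73% of all genes passed) and DESeq2 4 (6.66%). None was called without DKO node 3, DKO/hA-I node 1 or 2, DKO spleen 2 or 3, or any single DKO/hA-I spleen. In those settings 1.21% to 2.48% of all genes passed. The count was 1 without DKO node 1 (3.53% of all genes passed) and 2 without DKO spleen 1 (2.77%). It was 7 without DKO node 2 (7.82%) and 14 without DKO/hA-I node 3 (3.17%).

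Spleen and lymph node came from different animals and separate tables, so tissue cannot be told apart from these. Within DKO/hA-I mice, 38 of 80 subunit genes differed between spleen and node, where 25.7% of 14608 genes passed. Of these, 34 were lower in spleen (42.5%, against 11.8% of all genes) and 4 higher (5.0%, against 14.0%). The lower genes were 17 of complex I, 3 of complex II, 6 of complex III and 7 of complex IV, with Atp5b alone in complex V. A negative value was found for 74 genes (92.5%, against 50.6% of all genes) and a positive value for 6 (7.5%, against 49.4%), with a median of -0.49 against -0.01. This comparison uses the same DKO/hA-I nodes as the genotype comparison in lymph node, so the sets of values are not independent.

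Sdha led the lower genes of complex II at 304.2, 311.4 and 317.3 CPM in DKO/hA-I spleens against 692.8, 631.4 and 397.8 CPM in DKO/hA-I nodes (log2 fold change -0.88 ± 0.16, edgeR adjusted p = 0.00131), with Sdhd at -0.73 ± 0.17 and Sdhb at -0.75 ± 0.18 (0.00581 and 0.00805). In complex I the lowest adjusted p belonged to Ndufa10 (-0.94 ± 0.16, edgeR adjusted p = 0.000681). It was followed by Ndufa9, which sits where the arms of complex I join, with -0.78 ± 0.15 (0.002), and by the accessory subunits Ndufb5 (-0.62 ± 0.13, 0.00256) and Ndufb6 (-0.998 ± 0.21, 0.00305).

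In complex III, Uqcrb, which contacts the quinone site, stood at 51.6, 44.4 and 36.8 CPM in DKO/hA-I spleens against 95.0, 87.2 and 59.3 CPM in DKO/hA-I nodes (log2 fold change -0.86 ± 0.17, edgeR adjusted p = 0.00252), groups that did not overlap. Uqcrfs1 (-0.78 ± 0.17), the core protein Uqcrc2 (-0.72 ± 0.16) and the hinge protein Uqcrh (-0.46 ± 0.11) were lower too (edgeR adjusted p = 0.00461, 0.00548 and 0.00973). In complex IV, Cox6b1 (-0.67 ± 0.18), Cox7b (-0.65 ± 0.17) and Cox6c (-0.63 ± 0.18) were lower in spleen (edgeR adjusted p = 0.0128, 0.014 and 0.0177). In complex V, Atp5b was lower (-0.55 ± 0.18, edgeR adjusted p = 0.0417) and Atp5g1 was higher, at 42.5, 40.2 and 39.0 CPM in spleens against 27.1, 25.3 and 26.0 CPM in nodes (0.63 ± 0.16, edgeR adjusted p = 0.012). The count of calls was 20 without DKO/hA-I node 1 (25.0%, against 21.2% of all genes). It was 24 without DKO/hA-I node 2 (30.0% against 20.8%) and 24 without DKO/hA-I spleen 1 (30.0% against 19.8%). The highest count over single libraries left out was 50, without DKO/hA-I node 3 (62.5% against 20.7%). DKO/hA-I nodes held 241 to 806.6 CPM of brown adipocyte markers and the spleens 3.88 to 4.86 CPM, and the part of this in the tissue difference was not tested.

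Within DKO mice, 2 of the 80 genes differed between spleen and node, both higher in spleen (2.5%; 22.8% of 14608 genes passed, 11.5% higher and 11.3% lower). The median log2 fold change was 0.06 against -0.01 for all genes, with 46 positive and 34 negative (57.5% and 42.5%, against 48.9% and 51.1% of all genes). Ndufv1 had 0.33 ± 0.17 (edgeR adjusted p = 0.197), Uqcr10 0.47 ± 0.25 (0.202) and Sdhd -0.20 ± 0.17 (0.443). The median was -0.10 without DKO spleen 2 and 0.20 without DKO spleen 1, so its sign rests on single spleens. Markers of red pulp macrophages summed to 3595 to 3977 CPM in the 6 spleens and 449 to 1574 CPM in the nodes, and erythroid markers to 8543 to 40940 CPM against 93.9 to 421.9 CPM. Their part in the subunit values was not tested.

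The genes called in both tissue comparisons and higher in spleen were the complex IV isoforms Cox6a2 and Cox6b2. Cox6a2, known as the heart and muscle form of the subunit of which Cox6a1 is the widespread form (chromosome 7, 128205435 to 128206387, minus strand), stood at 6.41, 6.84 and 7.60 CPM in DKO spleens, 5.74, 6.44 and 6.12 CPM in DKO/hA-I spleens, 0.45, 1.18 and 1.32 CPM in DKO nodes and 0.56, 1.36 and 0.97 CPM in DKO/hA-I nodes. Every spleen lay above every node (log2 fold change 2.84 ± 0.35 in DKO and 2.65 ± 0.34 in DKO/hA-I, edgeR adjusted p = 6.59e-05 and 9.07e-05). Of its 680 exon bases, 70 overlap exons of Itgad, an integrin of splenic macrophages, on the opposite strand. Itgad stood at 244.5 to 268 CPM in spleens and 2.08 to 12.5 CPM in nodes, and if the counting ignored strand its reads cannot be told apart from those of Cox6a2 there. Cox6a1 stood at 109 ± 8.8 and 166 ± 54.1 CPM in DKO and DKO/hA-I nodes and at 139 ± 42.3 and 108 ± 11.7 CPM in the spleens.

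Cox6b2, known as the testis form of the subunit that Cox6b1 encodes elsewhere (chromosome 7, 4751792 to 4753094, minus strand), shares no exon with another gene. It stood at 5.30, 13.0 and 9.11 CPM in DKO spleens, 8.03, 6.64 and 5.43 CPM in DKO/hA-I spleens, 2.16, 0.17 and 0.71 CPM in DKO nodes and 1.39, 1.45 and 0.65 CPM in DKO/hA-I nodes. Again every spleen lay above every node (log2 fold change 3.02 ± 0.52 and 2.50 ± 0.51, edgeR adjusted p = 0.000928 and 0.00287). Skeletal muscle markers stood at 9.94 to 16.6 CPM in spleens and 6.58 to 16.1 CPM in nodes.

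Cox4i2, the form of subunit 4 known from lung and low oxygen (chromosome 2, 152754173 to 152765037, plus strand), went the other way. It stood at 0.99, 3.04 and 0.79 CPM in DKO nodes, 2.51, 2.26 and 3.55 CPM in DKO/hA-I nodes, 0.11, 0.88 and 0.40 CPM in DKO spleens and 0.53, 0.48 and 0.17 CPM in DKO/hA-I spleens. It was lower in spleen than node in DKO/hA-I mice (log2 fold change -2.78 ± 0.61, edgeR adjusted p = 0.0042), while DKO mice gave -1.59 ± 0.65 (0.101). These rest on 13 to 85 counts per group. Cox4i1, the widespread form, stood at 212 ± 18.6 and 259 ± 51.9 CPM in the nodes and 230.4 ± 63.2 and 189 ± 19.4 CPM in the spleens. Ndufa4l2 stood at 2.54 to 3.71 CPM in all 6 spleens and was higher there than in DKO/hA-I nodes (1.19 ± 0.34, edgeR adjusted p = 0.0189).

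**Figure D5:**
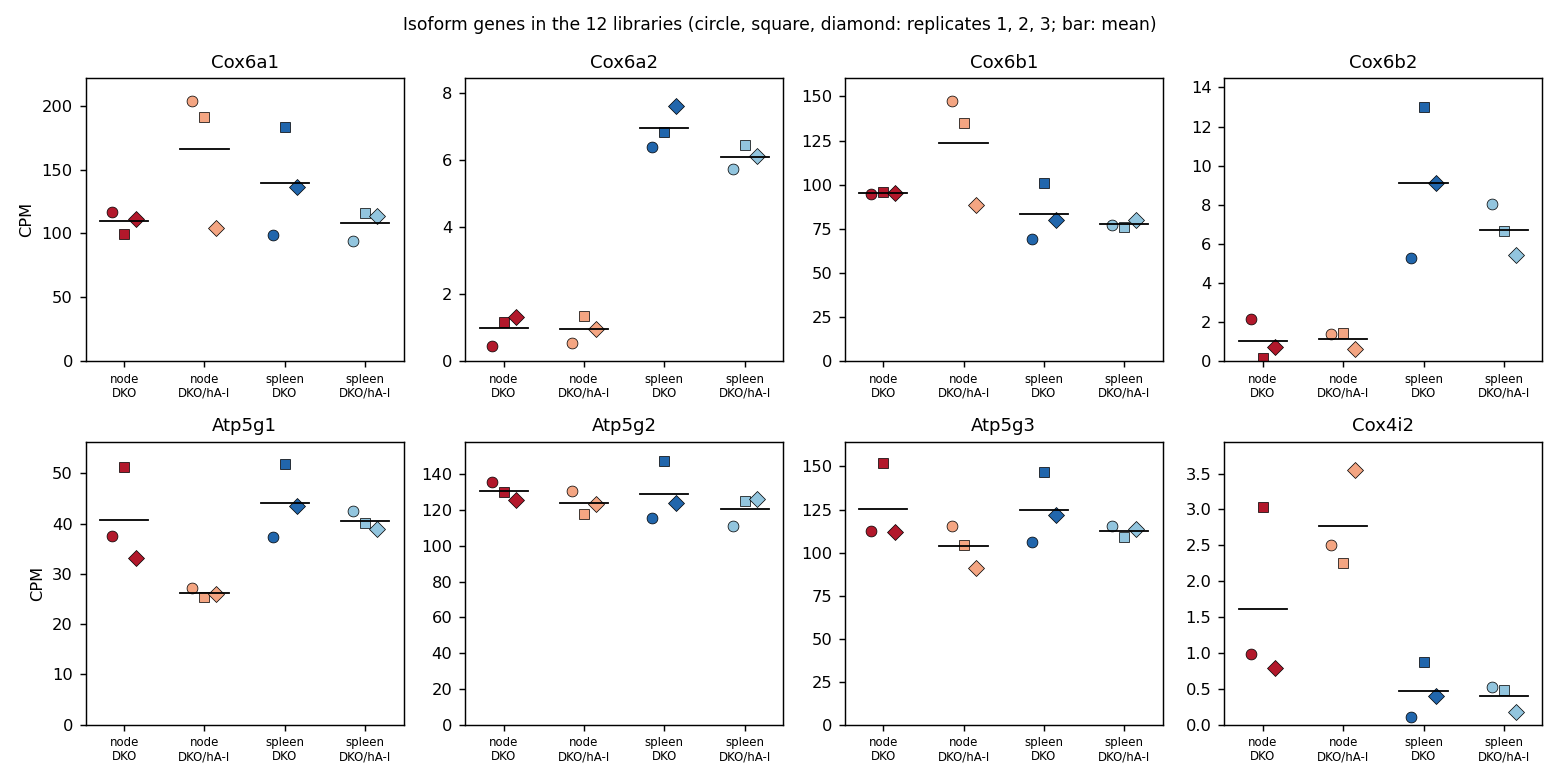
CPM (vertical axes, from 0) of 8 isoform genes of complexes IV and V in the 4 groups, with 1 symbol per library and a bar at the mean. Cox6a2 and Cox6b2 are at 5.30 to 13.0 CPM in the spleens and at 0.17 to 2.16 CPM in the nodes, and Atp5g1 is lowest in the DKO/hA-I nodes.

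Levels of different genes were compared per length, as CPM per kilobase of the principal transcript averaged over the 12 libraries. Atp5b (450.0), Cox4i1 (298.8) and Atp5g2 stood highest, followed in the other complexes by Uqcrh (199.5), Ndufa4 (145.9), a gene named for complex I and since placed in complex IV, and Sdha (129.6). The lowest subunit was Sdhc (25.1) in complex II, Uqcrfs1 (60.6) in complex III, Ndufa4l2 (2.90) in complex I and Atp5s (4.06), a factor bound to the synthase, in complex V. No such value is given for Atp5g1, since its annotated coding transcripts run from 596 to 4715 bases.

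Other genes of the pathway, in lists made with results of these data known, differed in how they went in lymph node, where 2.92% of all genes were lower and 3.95% higher. Of 18 genes of the citric acid cycle and pyruvate dehydrogenase, 8 were lower in DKO nodes and 0 higher, with a median log2 fold change of -0.86. Pdha1 had the lowest adjusted p of the 8 (log2 fold change -1.625 ± 0.225, edgeR adjusted p = 0.0138). Idh3a, the catalytic subunit of the NAD-dependent isocitrate dehydrogenase, stood at 46.6, 70.2 and 54.1 CPM in DKO and at 203.5, 147 and 92.2 CPM in DKO/hA-I nodes (log2 fold change -1.36 ± 0.29, edgeR adjusted p = 0.0357). Of 16 genes of electron carriers and of the enzymes that feed ubiquinone, 4 were lower and 0 higher (median -0.61), among them Gpd2 of the glycerol phosphate shuttle (-1.72 ± 0.26, edgeR adjusted p = 0.0159) and Etfdh, which passes electrons from fatty acid oxidation to ubiquinone (-1.20 ± 0.20, 0.0202). Cycs, cytochrome c, and Cyc1, a cytochrome of complex III, had -0.79 ± 0.26 and -0.80 ± 0.24 (edgeR adjusted p = 0.116 and 0.0923). Cyc1 was not among the 82 genes, which were chosen by symbol.

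Of 17 regulators of mitochondrial genes, 2 were lower and 0 higher (median -0.21). Ppargc1a, the coactivator induced in brown fat and itself in the brown adipocyte list, stood at 2.88, 1.52 and 2.03 CPM in DKO and at 11.0, 8.68 and 11.1 CPM in DKO/hA-I nodes (-2.20 ± 0.28, edgeR adjusted p = 0.0113), and Ppargc1b was the other. Of 31 assembly factors 1 was lower (Atpaf2, which helps to build the F1 head, -0.71, edgeR adjusted p = 0.0276), a share near that of all genes, with a median of -0.16. Of 76 mitochondrial ribosomal proteins, which translate the subunits encoded in mitochondrial DNA, 0 were called in either direction and the median was 0.03. Among 10 carriers and partners of the synthase, Ucp3 (-4.38 ± 0.45, edgeR adjusted p = 0.00742) and the carnitine carrier Slc25a20 (-1.05 ± 0.22, 0.0341) were lower. Atpif1, the inhibitor protein of the ATP synthase, was higher in DKO nodes, at 41.9, 28.0 and 44.2 CPM against 22.9, 21.1 and 21.5 CPM (0.82 ± 0.19, 0.0427). In spleen none of the genes of these lists was called between the genotypes.

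Within DKO/hA-I mice, 14 of the 18 citric acid cycle genes, 8 of the 16 electron carrier genes, 4 of the 31 assembly factors, 4 of the 17 regulators and 2 of the 76 mitochondrial ribosomal proteins were lower in spleen than in node, and none of these lists had a gene called higher. Of all genes 11.8% were lower and 14.0% higher, so the share of assembly factors was near the background and that of ribosomal proteins below it. The interaction of tissue and genotype called 7 citric acid cycle genes, 2 electron carrier genes (Gpd2 and Etfdh), the regulator Ppargc1b, the assembly factor Atpaf2 and the carrier Ucp3, all with the node contrast below that of spleen (1.29% of all genes). Subunits encoded in mitochondrial DNA were not analysed here.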

How the data were processed

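Poly(A) RNA-seq libraries of spleen and axillary lymph node (4 groups, 3 libraries each) were used as the authors' raw read counts, deposited as 1 table per tissue with the same 23284 symbols. The submitters' processing notes name Trimmomatic, Bowtie, TopHat, Cuffdiff and GRCm38 (mm10). The sources used here give neither the annotation nor the program that made the counts or its use of strand, so reads of overlapping genes could have been assigned either way (26 of the 82 genes share exon bases with a gene on the other strand and 4 with a gene on the same strand). The deposited tables also hold the authors' p-value and q-value per gene, of which only the q-value was used, as named in the text.

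Tests on the counts used edgeR 4.0.16 (R 4.3.3): filterByExpr (minimum count 10, minimum total count 15), TMM, robust estimateDisp and glmQLFit, then glmQLFTest, with Benjamini-Hochberg adjustment over all genes tested and calls at an adjusted p under 0.05. Genotypes were compared within each tissue (6 libraries), and tissues and the interaction in 1 fit of 12 libraries. Alternatives were other size factors, DESeq2 1.42.0, limma 3.58.1 voom, no filter, library sizes without haemoglobin genes, blocks and each library left out. The steps were tested on simulated counts. CPM are on the TMM scale of all 12 libraries, so a ratio of printed CPM can differ slightly from a fitted fold change. Intervals of 3 counts cover counting error only.

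Named genes are, per comparison and complex, up to 4 called genes per direction by adjusted p, otherwise the 2 of lowest p, with the isoform genes, complex II and the highest and lowest genes per length; Ndufs1, Ndufb8, Cox7a2l and the ratios were singled out after their values were seen. The genes and lists were chosen with earlier results of these data known. Genes named from the other lists are examples and not always those of lowest adjusted p. Positions and lengths come from GENCODE vM21 (81 of 82 symbols matched) and promoters from RefSeq (64 matched). P-values measure the spread between the libraries, each with its own animal code.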

Additional observations from a re-analysis of the deposited data

Results flagged for a closer look

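The genotype contrast differed between lymph node and spleen for 3 of 80 subunit genes by the interaction test over 12 libraries. This share (3.75%) was near that of all genes (3.33% of 14608). The difference was -1.13 ± 0.25 (log2, edgeR adjusted p = 0.0266) for Ndufv1, -0.94 ± 0.23 (0.0425) for Sdha and -0.90 ± 0.22 (0.0449) for Ndufa10. In each of them the gene was called lower in DKO nodes and was not called between the spleens. Over the alternatives the edgeR, DESeq2 or voom adjusted p ran from 0.00129 to 0.0735 for Ndufv1, from 0.000671 to 0.105 for Sdha and from 0.00195 to 0.111 for Ndufa10. With both DKO libraries numbered 2 left out, an alternative chosen after seeing the data, Ndufv1 and Ndufa10 passed and Sdha gave 0.0528. In that setting 2 of 80 subunit genes passed (2.5%), against 7.24% of all genes.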

How the results depend on the processing

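With each library left out, the median log2 fold change of the subunit genes ranged from 0.04 to 0.27 in spleen and from -0.50 to -0.26 in lymph node between the genotypes, from -0.69 to -0.38 for the interaction and from -0.61 to -0.37 between tissues in DKO/hA-I mice, and it changed sign (-0.10 to 0.20) between tissues in DKO mice. In lymph node between the genotypes, the count of calls was 3 with TMM and edgeR (6.87% of all genes passed). It was 5 with upper quartile factors (6.92%), 13 with DESeq2 (14.0%) and 1 with limma voom (4.99%). With each library left out it was 0 to 14, where 0.808% to 15.7% of all genes passed. The interaction gave 0 with limma voom (1.73% of all genes) and 0 to 14 with each library left out (1.21% to 7.82%). In spleen the count was 17 with the animal code block (3.68% of all genes) and 0 without it (0.00714%). With each library left out it was 0 to 1 (0.00705% to 1.18%). Between tissues, with each library left out, the count ranged from 2 to 4 in DKO mice (16.2% to 29.8% of all genes). In DKO/hA-I mice it ranged from 20 to 50 (19.5% to 21.3%). The value of Sdhd in spleen, 0.02, reversed to -0.016 with upper quartile factors and ranged from -0.088 to 0.098 with each library left out, below 0 at -0.038 when DKO/hA-I replicate 3 and at -0.088 when DKO replicate 2 was the one left out. The cause was not tested.

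The replicate numbers in the titles did not pair the libraries: same-numbered libraries of the genotypes had correlations of their deviations of -0.00104, 0.108 and -0.0998 in spleen and -0.141, 0.026 and -0.0343 in lymph node. With a replicate block the counts of calls were 0 in lymph node (3.13% of all genes passed), 0 for the interaction (2.05%) and 0 in spleen (0.00714%). Between the tissues they were 2 in DKO mice (2.5%, against 20.3% of all genes) and 36 in DKO/hA-I mice (45.0% against 23.6%).

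The values of Cox4i2, Cox6a2, Cox6b2 and Ndufa4l2 rest on 13 to 272 counts per group. A difference that missed the threshold is not shown to be absent. The DKO nodes share an animal code number that no DKO/hA-I node has, and spleens and nodes came from different animals.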

Other observations

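Ndufs5, a small accessory subunit of complex I, varied within groups more than most subunit genes. It stood at 7.56, 14.9 and 5.65 CPM in DKO nodes, 13.4, 10.6 and 11.4 CPM in DKO/hA-I nodes, 8.72, 10.8 and 18.6 CPM in DKO spleens and 3.44, 13.7 and 10.4 CPM in DKO/hA-I spleens. The order of the libraries differed from that of the complex, and no comparison called the gene. Lymph node DKO/hA-I replicate 1 held the highest value of the 12 libraries for 51 of the 80 subunit genes with any count.

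Slc25a4 and Slc25a5, the adenine nucleotide carriers that exchange ATP for ADP across the inner membrane, did not go with the subunits. Slc25a4 stood at 99.9 to 114 CPM in the DKO nodes and 106.6 to 113 CPM in the DKO/hA-I nodes (log2 fold change -0.02 ± 0.11, edgeR adjusted p = 0.932), and Slc25a5 at 326 to 366 CPM against 270.4 to 306.6 CPM (0.26 ± 0.12, edgeR adjusted p = 0.228). Ucp2, the uncoupling protein of leukocytes, stood at 678 to 921.5 CPM in DKO nodes, 461 to 570.1 CPM in DKO/hA-I nodes and 927 to 1406 CPM in the spleens (0.67 ± 0.16 between the nodes, edgeR adjusted p = 0.0506), and it was higher in spleen than in node in both genotypes (log2 fold change 0.51 ± 0.16 in DKO and 0.97 ± 0.16 in DKO/hA-I, edgeR adjusted p = 0.0381 and 0.000777).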
